A study of Homo sapiens with 9 samples.

Results

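TULP3 and 9 genes of the ciliary transition zone (B9D1, B9D2, MKS1, TCTN1, TCTN2, TCTN3, TMEM67, CC2D2A and CEP290) were followed through 9 RNA sequencing libraries of cells labelled Huh7, a human hepatocellular carcinoma line. The 10 genes were taken by symbol, each from 1 row of a count table with 60448 rows, and all 10 were among the 15019 genes that passed an expression filter and were tested. The set was selected on log2 fold changes and calls of these same libraries, so the calls and p-values describe the libraries and are no independent test. The OPA1 knock-down sets are named N_28 and N_30 in the labels, which do not say what the names stand for, and each has 3 libraries beside 3 control libraries. OPA1 encodes a GTPase that fuses inner mitochondrial membranes. Per the labels the knock-down was made by lentivirus, and the same treatment text stands on the control libraries, while the vector is not named in the sources read. The labels are silent on whether replicates are separate cultures, so the p-values reflect only how far these libraries spread, which may be technical noise.

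The primary cilium is an antenna of the cell surface that grows from a centriole, and the transition zone is the gate at its base that limits which proteins enter and leave. The MKS module of that gate joins B9-domain proteins, tectonics, meckelin and coiled-coil proteins, and defects in it cause Meckel and Joubert syndromes. TULP3 is a tubby-family adaptor that binds phosphoinositides at the membrane and the transport complex IFT-A, and it carries membrane proteins such as the receptor GPR161 into the cilium, where they set the tone of Hedgehog signalling.

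Promoter sequences of the pair of genes whose levels moved most, TULP3 and B9D1, are shown first, with the letters searched in the members' promoters. Each is the RefSeq window of 300 bases on GRCh38.p14, with 250 bases before the annotated start and 50 after it, read along the gene's strand. Capitals mark GTTGCC, the core of the X-box motif that RFX factors bind, or its reverse complement GGCAAC. TULP3 lies at chr12:2890641-2890940 on the plus strand and holds GTTGCC 40 bases before its start. This RefSeq start lies 13668 bases inside the GENCODE gene, whose left end sets the gene position and the distance to FOXM1 given for TULP3. B9D1 lies at chr17:19377864-19378163 on the minus strand and holds neither word. RefSeq gives B9D1 a further window at chr17:19362674-19362973, not printed, which holds neither word as well.
TULP3: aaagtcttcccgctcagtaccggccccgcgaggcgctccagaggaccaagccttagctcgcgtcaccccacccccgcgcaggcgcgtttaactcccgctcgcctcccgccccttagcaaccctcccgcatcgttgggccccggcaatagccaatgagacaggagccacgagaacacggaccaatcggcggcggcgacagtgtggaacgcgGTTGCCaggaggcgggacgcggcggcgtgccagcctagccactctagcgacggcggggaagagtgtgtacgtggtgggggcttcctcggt
B9D1: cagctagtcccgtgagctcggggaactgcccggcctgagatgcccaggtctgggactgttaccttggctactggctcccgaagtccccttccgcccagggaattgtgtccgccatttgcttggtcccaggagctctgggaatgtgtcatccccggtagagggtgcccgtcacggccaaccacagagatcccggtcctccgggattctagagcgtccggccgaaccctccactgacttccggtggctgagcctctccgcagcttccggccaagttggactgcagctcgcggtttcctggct

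RefSeq windows were searched for 8 of the 10 members, and 5 of those 8, TULP3 among them, held GTTGCC on either strand. The word was found in 12.2% of all 35116 promoter windows and in 16.7% of the 11008 tested genes with a window. Windows of B9D2 (chr19:41364100-41364399, minus strand), MKS1 (chr17:58219206-58219505, minus strand), TCTN1 (chr12:110613879-110614178, plus strand) and TCTN3 (chr10:95693878-95694177, minus strand) were the others, and the bases around the match are printed so that the 4 can be compared. In TCTN1 and TCTN3 the word is followed after 1 base by its reverse complement, which gives the full palindrome of an X-box. That pairing within 0 to 3 bases, a spacing chosen after the matches were seen, was found in 58 of the 35116 windows (0.165%). A match is a description of the letters and not evidence of binding.
B9D2: agcctgctGTTGCCccagcaac
MKS1: gcgtctccGTTGCCaggaaaac
TCTN1: ctgtcgcgGTTGCCgGGCAACgcgctgtc
TCTN3: cactgacgGTTGCCaGGCAACggaggcac

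Total counts ran from 18316731 to 22863328 in N_28, from 16476389 to 22400589 in N_30 and from 19510555 to 22164035 in control libraries. A count of 3, the upper limit that a count of 0 allows for counting error only, equals 0.131 to 0.182 CPM (counts scaled to a common library size), under the level of each member. OPA1 fell in both knock-down sets, to 55.6 ± 2.25 CPM in N_28 and 64.5 ± 1.3 CPM in N_30, against 88.7 ± 5.28 CPM in control (SD, n = 3 each). Markers of the labelled tissue were nearly absent: 2 of 10 hepatocyte markers reached 1 CPM in control, APOB was at 0 in all 9 libraries, and the summed level of the list was 6.16 to 7.73 CPM in N_28, 12 to 17.5 in N_30 and 10.1 to 13.3 in control. The kidney lineage factor PAX2 averaged 143 CPM in N_28, 147 in N_30 and 154 in control, and PAX8 of the same list 6.68, 5.57 and 4.9 CPM. The 8 mesenchymal or fibroblast markers, 5 of them at 1 CPM or more in control, had the highest sums of the lists. They summed to 2098 to 2197 CPM in N_28, 2323 to 2450 in N_30 and 2303 to 2414 in control. Most of that was VIM, at 1420 CPM in N_28, 1447 in N_30 and 1493 in control. Of 7 markers of multiciliated cells, 1 (DNAH5) reached 1 CPM in control and DNAI2 and TEKT1 were at 0, with summed levels of 4.95 to 6.79 CPM in N_28, 6.04 to 7.44 in N_30 and 5.62 to 6.60 in control. Whether the cells carried cilia was not measured in these libraries.

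TULP3 rose in both knock-down sets. TULP3 (ENSG00000078246, plus strand of chromosome 12 from 2877223 to 2941140 in GENCODE 29, build GRCh38) had 42.2, 38.6 and 39.2 CPM in N_28 libraries 1, 2 and 3, 33.6, 32.4 and 33.4 CPM in N_30, and 22.7, 22.3 and 21.9 CPM in control. These levels rest on 703 to 897 counts per library in N_28, 559 to 751 in N_30 and 437 to 488 in control. Every N_28 library lay above every N_30 library, and every N_30 library above every control library. All tested genes were fitted together in edgeR, whose quasi-likelihood test gave p-values that were adjusted by Benjamini and Hochberg, and a gene was called at an adjusted p under 0.05. The log2 fold change of TULP3 was 0.84 (SE 0.07, 95% interval 0.70 to 0.99, edgeR adjusted p = 6.07e-06) in N_28 against control. In N_30 against control it was 0.57 (SE 0.07, 95% interval 0.43 to 0.72, edgeR adjusted p = 9.34e-04). The folds were 1.79 in N_28 and 1.49 in N_30, and both sets were compared with the same 3 control libraries, so these values are not independent of each other. TULP3 was 1 of 14 genes (0.0932% of those tested) called higher in both sets, and 9 (0.0599%) were called lower in both. RNA was taken from whole cultures, so a change in every cell and a change in the share of cells that make the transcript cannot be told apart.

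The genes next to TULP3 changed less. RHNO1, a DNA damage checkpoint gene on the same strand, overlaps TULP3 by 60 exonic bases (1.89% of the exonic length of TULP3) and averaged 35.4 ± 2.02 CPM in N_28, 36 ± 2.37 in N_30 and 35.3 ± 0.884 in control. FOXM1, a transcription factor of the mitotic programme that lies 68 bases to the left on the opposite strand, averaged 158 ± 13.9 CPM in N_28, 151 ± 26.2 in N_30 and 150 ± 20.6 in control. Neither was called, with log2 fold changes against control of 0.01 in N_28 and 0.03 in N_30 for RHNO1, and of 0.08 in N_28 and 0.01 in N_30 for FOXM1. TEAD4, a Hippo pathway factor 18190 bases to the right, was called in N_28 (0.28, edgeR adjusted p = 0.00946) and was at 0.03 in N_30 (edgeR adjusted p = 0.930). Its N_28 call was lost without N_28 replicate 1, where the highest edgeR adjusted p of the alternatives stood (0.0573). Over the 75 tested genes within 5 Mb, the median log2 fold change was -0.02 in N_28 and 0.03 in N_30, and TULP3 had the second and the third highest value.

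**Figure D1:**
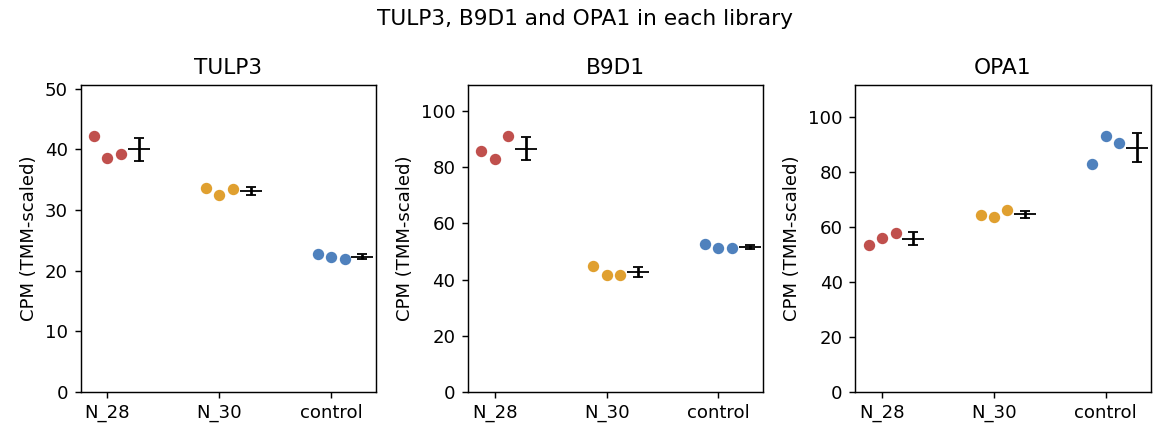
TULP3, B9D1 and OPA1 in each library. The vertical axes give CPM on scaled library sizes, points are libraries 1 to 3 of N_28, N_30 and control, and the bar beside them is the mean with its SD (n = 3). TULP3 averaged 40.0 CPM in N_28, 33.1 in N_30 and 22.3 in control, B9D1 86.7 CPM in N_28, 42.7 in N_30 and 51.8 in control, and OPA1 55.6 CPM in N_28, 64.5 in N_30 and 88.7 in control.

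B9D1, which encodes a B9-domain protein that sits in a complex with B9D2 and MKS1 at the transition zone, was higher in N_28 and lower in N_30. B9D1 (ENSG00000108641, chromosome 17, 19337554 to 19378193, minus strand) had 85.9, 83.0 and 91.2 CPM in N_28 libraries 1, 2 and 3, 44.8, 41.7 and 41.6 CPM in N_30, and 52.6, 51.2 and 51.4 CPM in control. The 3 groups did not overlap, with N_30 lowest and N_28 highest. The log2 fold change was 0.74 (SE 0.06, 95% interval 0.62 to 0.87, edgeR adjusted p = 5.61e-06) in N_28 against control, a fold of 1.68. In N_30 against the same control libraries it was -0.28 (SE 0.06, 95% interval -0.41 to -0.15, edgeR adjusted p = 0.0496), a fold of 0.825. That N_30 call rests on a narrow margin: under 15 alternative settings the value stayed between -0.31 and -0.26, the gene was called under 6, and the edgeR or DESeq2 adjusted p ran from 0.0156 to 0.215. It was lost with only the groups compared and without any 1 library other than N_28 replicate 3. The 5 epithelial markers, 3 of them at 1 CPM or more in control and none at 0 in all libraries, summed to 386 to 431 CPM in N_28, 570 to 602 in N_30 and 469 to 543 in control, and their part in the B9D1 values was not tested. Most of that sum was KRT8, which averaged 317 CPM in N_28, 479 in N_30 and 411 in control, while CDH1 averaged 1.97 CPM in N_28, 1.31 in N_30 and 1.72 in control. The 4 kidney epithelium markers summed to 318 to 403 CPM in N_28, 337 to 390 in N_30 and 341 to 409 in control, so those groups overlapped. Genes called higher in N_28 and lower in N_30 numbered 28 (0.186% of those tested), B9D1 among them, and 27 (0.180%) were called the other way round.

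Genes next to B9D1 rose in N_28 as well. MAPK7, the kinase ERK5, overlaps B9D1 on the opposite strand by 243 exonic bases, which is 6.63% of the exonic length of B9D1 and 4.68% of that of MAPK7. MAPK7 had 444, 459 and 516 CPM in N_28, 230, 222 and 234 CPM in N_30, and 363, 264 and 305 CPM in control. Its log2 fold change was 0.61 in N_28 (edgeR adjusted p = 9.80e-04) and -0.44 in N_30 (edgeR adjusted p = 0.0496, called under 6 of 15 alternatives). EPN2, an epsin that acts in endocytosis and lies 839 bases to the left, had 151, 158 and 167 CPM in N_28, 75.5, 80.5 and 86.8 CPM in N_30, and 109, 92.7 and 103 CPM in control. It was called in N_28 (0.64, edgeR adjusted p = 7.43e-05) and missed the threshold in N_30 (-0.33, edgeR adjusted p = 0.0530, and 0.00870 with the replicate number taken as a block). The microRNA gene MIR1180, which overlaps B9D1 on the same strand, was low, at 1.51 CPM in N_28, 0.774 in N_30 and 0.745 in control. Its log2 fold changes of 1.02 in N_28 and 0.03 in N_30 were not called. The deposited sources used here do not say whether counting used strand, so reads of the stretch shared by B9D1 and MAPK7 cannot be assigned with certainty, and their part in the B9D1 values was not tested.

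To the right of B9D1 within 0.25 Mb, SLC47A1, MFAP4 and RNF112 had the signs of B9D1 in both sets and differed in size. The organic cation exporter SLC47A1 averaged 32.7 CPM in N_28, 23.5 in N_30 and 25.5 in control, with log2 fold changes of 0.36 in N_28 (edgeR adjusted p = 0.00881) and -0.12 in N_30. The microfibril gene MFAP4 averaged 4.47 CPM in N_28, 1.91 in N_30 and 3.58 in control, and neither change against control was called. Its value in N_30 was -0.92 (edgeR adjusted p = 0.0521, and 0.0183 with the replicate block). SPECC1, 0.806 Mb to the right and named after its values were seen, had signs opposite to those of B9D1, at -1.18 in N_28 and 0.21 in N_30. Over the 72 tested genes within 5 Mb the median was 0.05 in N_28 and -0.04 in N_30, close to the medians over the 956 tested genes of chromosome 17, which were 0.03 in N_28 and -0.02 in N_30. B9D1 had rank 3 from the top of these 72 genes in N_28 and rank 63 in N_30. Genes within 0.25 Mb were looked up after the values of B9D1 had been seen.

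**Figure D2:**
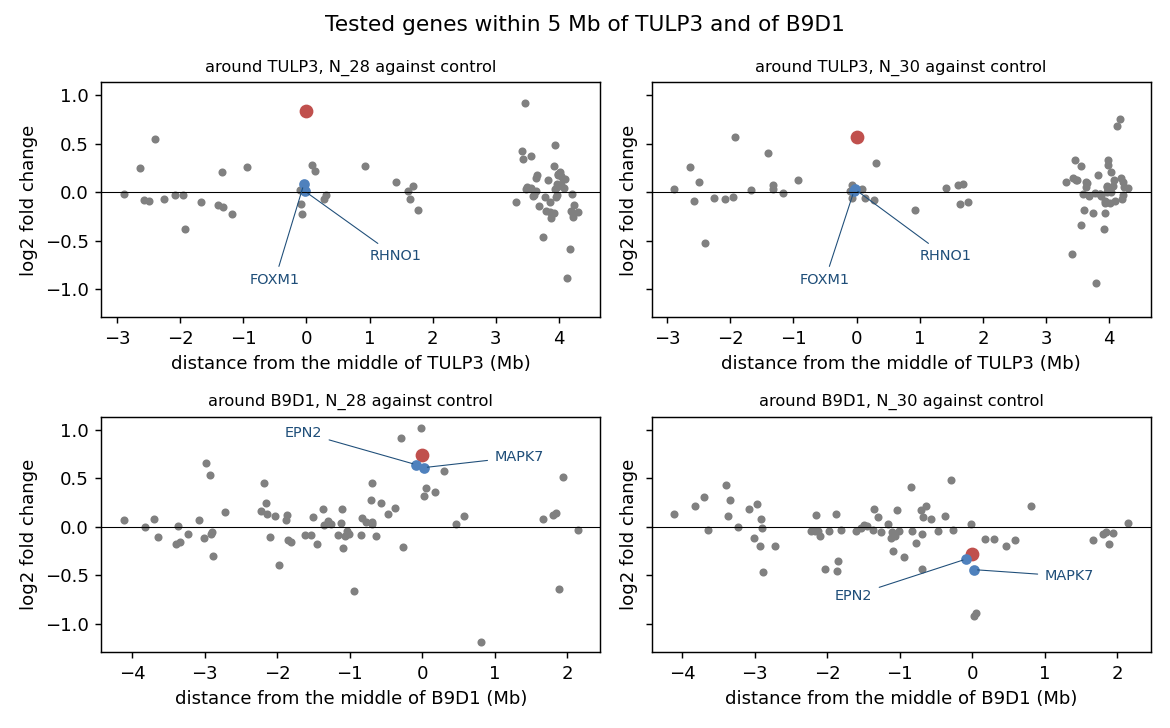
Log2 fold changes of tested genes within 5 Mb of TULP3 (top) and of B9D1 (bottom), in N_28 (left) and N_30 (right) against control. The horizontal axes give the distance from the middle of the gene in Mb, the red point is TULP3 or B9D1, and blue points are the labelled neighbours. RHNO1 and FOXM1 lie near 0 beside TULP3, while MAPK7 and EPN2 lie at 0.61 and 0.64 in N_28 and at -0.44 and -0.33 in N_30 beside B9D1.

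None of the other 8 members was called against control in either set by edgeR, 0 had an unadjusted p under 0.05, and 0 were called by DESeq2. Of all 10 members, 2 were called higher and 0 lower in N_28, where 4.49% of all tested genes were called higher and 5.75% lower. In N_30, 1 member was called higher and 1 lower, where 0.459% of tested genes were called higher and 0.406% lower. The list was drawn up with these changes known, so the shares are given for scale alone. Median log2 fold changes of the 10 were -0.01 in N_28 and 0.03 in N_30, beside 0.00 over all tested genes in each comparison. For the 8 without TULP3 and B9D1 the changes ran from -0.19 to 0.06 in N_28 and from -0.02 to 0.16 in N_30.

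B9D2 and MKS1, the partners of B9D1 in the B9 complex, did not follow it. B9D2 (ENSG00000123810, chromosome 19, 41354421 to 41364173, minus strand), with 98 to 176 counts per library, averaged 6.22 ± 1.26 CPM in N_28, 6.51 ± 1.15 CPM in N_30 and 6.39 ± 1.05 in control (SD, n = 3 each). Its groups overlapped, and the 95% interval of its log2 fold change was wide, at -0.43 to 0.34 in N_28 and -0.36 to 0.41 in N_30 against control. MKS1 (ENSG00000011143, chromosome 17, 58205437 to 58219605, minus strand) averaged 21.0 ± 1.49 CPM in N_28, 19.8 ± 0.135 in N_30 and 20.2 ± 1.36 in control. The intervals of MKS1 were -0.12 to 0.24 in N_28 and -0.20 to 0.16 in N_30, which leave out a change of the size seen in B9D1 in N_28.

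The tectonics are a family of glycoproteins with a signal sequence, of which TCTN1 is secreted or held at the membrane and TCTN2 and TCTN3 have a membrane anchor. TCTN1 (ENSG00000204852, chromosome 12, 110614027 to 110649430, plus strand) averaged 13.7 ± 0.521 CPM in N_28, 15.4 ± 1.36 in N_30 and 15.0 ± 1.29 in control. TCTN2 (ENSG00000168778, chromosome 12, 123671113 to 123708403, plus strand) averaged 13.3 ± 0.497 CPM in N_28, 13.6 ± 0.468 in N_30 and 12.8 ± 1.29 in control. For both genes the libraries of each knock-down set overlapped those of control. TCTN3 (ENSG00000119977, chromosome 10, 95663396 to 95694143, minus strand) had 44.7, 43.5 and 45.7 CPM in N_28, 49.2, 49.1 and 54.2 CPM in N_30, and 49.0, 47.6 and 50 CPM in control. All 3 N_28 libraries lay below the 6 others, and the log2 fold change against control was -0.13 (95% interval -0.26 to 0.00, edgeR adjusted p = 0.210), which did not pass.

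Meckelin, the receptor-like membrane protein of the module, is encoded by TMEM67 (ENSG00000164953, chromosome 8, 93754844 to 93819234, plus strand), the member with the lowest level per length. It averaged 9.35 ± 0.770 CPM in N_28, 10.4 ± 1.92 in N_30 and 9.26 ± 1.54 in control. CC2D2A (ENSG00000048342, chromosome 4, 15469865 to 15601557, plus strand), a coiled-coil and C2 domain protein needed to assemble the module, had 20.6, 20.3 and 19.3 CPM in N_28, 22.7, 21.1 and 22.2 CPM in N_30, and 20.7, 23.5 and 22.3 CPM in control. Its N_28 libraries lay below all others by a small margin, with a log2 fold change against control of -0.14 (95% interval -0.31 to 0.03, edgeR adjusted p = 0.302). CEP290 (ENSG00000198707, chromosome 12, 88049014 to 88142216, minus strand) bridges the microtubules of the axoneme and the membrane, and averaged 22.8 ± 1.92 CPM in N_28, 25.9 ± 2.29 in N_30 and 26.0 ± 2.42 in control. Its log2 fold change was -0.19 in N_28 (95% interval -0.40 to 0.01, edgeR adjusted p = 0.247) and -0.01 in N_30 (95% interval -0.22 to 0.20). Groups that do not overlap were found in 4 of the 10 members in N_28 against control and in 2 in N_30 against control, beside 28.7% and 15.2% of all tested genes.

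**Figure D3:**
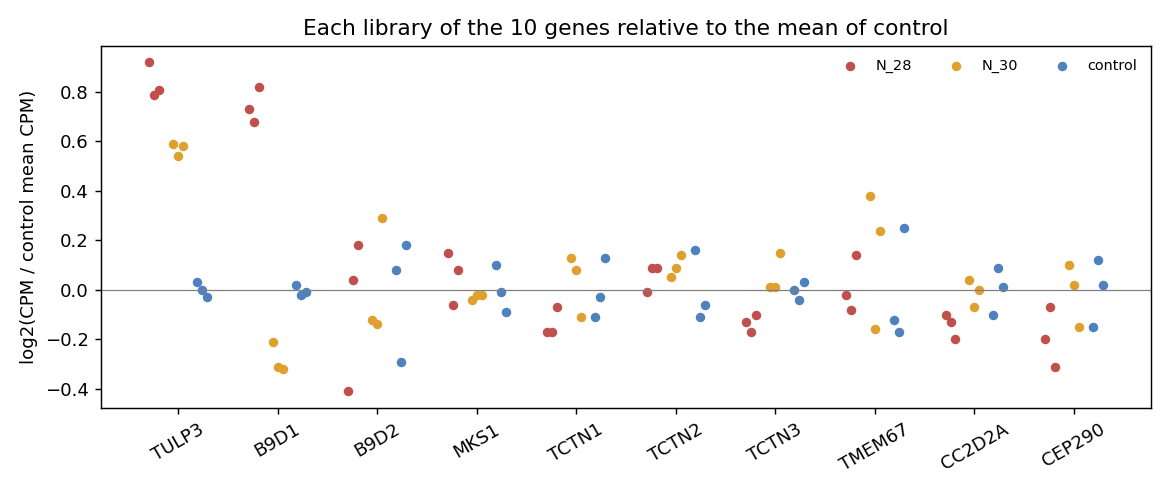
Each library of the 10 genes as log2 of its CPM over the control mean CPM. Points are libraries of N_28 (red), N_30 (orange) and control (blue), and the horizontal line marks the control mean. TULP3 lies above the line in all 6 knock-down libraries, B9D1 above it in N_28 and below it in N_30, and the other 8 genes scatter around it.

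Per kb of exon, B9D1 changed its place among the members. In control libraries TCTN3 stood highest at 15.2 ± 0.370 CPM per kb, followed by B9D1 (14.1 ± 0.208) and TULP3 (7.01 ± 0.127). MKS1 (4.95 ± 0.333) and B9D2 (4.86 ± 0.798) came next and their libraries overlapped, as did those of CEP290 (2.50 ± 0.232) and TCTN2 (2.50 ± 0.252) after CC2D2A (2.91 ± 0.186). TCTN1 (1.57 ± 0.134) and TMEM67 (1.12 ± 0.186) were lowest. Libraries of TCTN2 also overlapped those of CC2D2A, with TCTN2 at 2.79 and CC2D2A at 2.72 CPM per kb in control library 1. In N_28 the level of B9D1 was 23.6 ± 1.12 CPM per kb, above TCTN3 (13.9 ± 0.339) and TULP3 (12.6 ± 0.612). In N_30 TCTN3 (15.8 ± 0.900) stood above B9D1 (11.6 ± 0.502) and TULP3 (10.4 ± 0.218). Lengths are the union of the exons in GENCODE release 29, and the isoforms that these cells use were not analysed here.

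The knock-down sets differed from each other most in B9D1. In N_30 against N_28, 1 member was called higher and 2 lower, where 18.3% of all tested genes were called, 9.38% higher and 8.96% lower, and 4 members did not overlap, beside 36.4% of tested genes. B9D1 stood at 42.7 ± 1.84 CPM in N_30 and 86.7 ± 4.12 CPM in N_28, a log2 fold change of -1.02 (SE 0.06, 95% interval -1.15 to -0.90, edgeR adjusted p = 1.42e-07). TULP3 was lower in N_30 than in N_28 by -0.27 (SE 0.07, 95% interval -0.41 to -0.13, edgeR adjusted p = 0.0107), a call lost without N_28 replicate 1 (-0.23, edgeR adjusted p = 0.0647). TCTN3 was higher in N_30 by 0.19 (SE 0.06, 95% interval 0.06 to 0.32, edgeR adjusted p = 0.0461), and this call held under 4 of 15 alternatives, with adjusted p from 0.0257 to 0.192. Of the 9 settings without 1 library, it held without control replicate 1 alone. OPA1 itself was higher in N_30 than in N_28 by 0.21 (edgeR adjusted p = 0.0265), which was called under 9 of 15 alternatives.

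**Figure D4:**
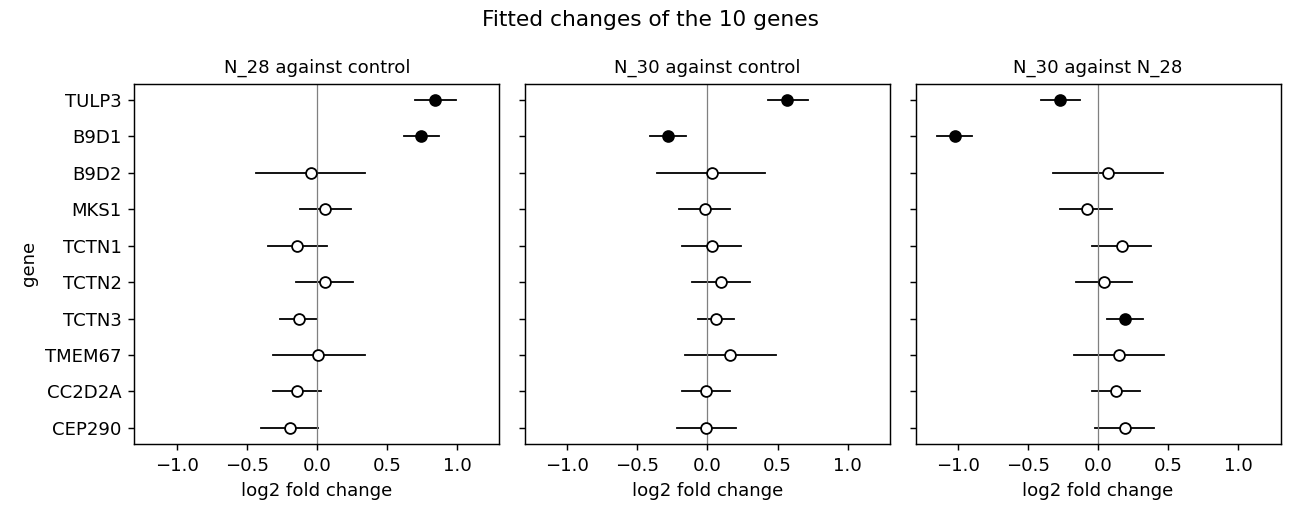
Fitted log2 fold changes of the 10 genes in N_28 against control, N_30 against control and N_30 against N_28. Lines are 95% intervals from edgeR's fit, filled points passed an adjusted p of 0.05 and open points did not. TULP3 is filled on the right of 0 in both comparisons with control, and B9D1 is filled at 0.74 in N_28 and at -0.28 in N_30.

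Genes of the other parts of the cilium, of related pathways and of proliferation were read from 14 lists, chosen with earlier results of these data known. They held 131 tested genes beyond the members, 10 of them from the proliferation list. In N_28 against control 7 of them were called higher and 7 lower, 14 of 131 beside 10.2% of all tested genes. In N_30 against control 1 was called, lower, beside 0.866%. The medians over the 131 genes were -0.02 in N_28 and -0.01 in N_30. The N_28 count was 6 without N_28 replicate 1 or N_28 replicate 2, 8 without control replicate 1 and 9 without N_30 replicate 2. In N_30 the count was 2 without control replicate 1.

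Calls among partners of the members are given beside 10.2% of all tested genes called in N_28 and 0.866% in N_30. Of 6 other MKS module genes 0 were called against control in either set by edgeR or DESeq2, and 0 in N_28 and 1 in N_30 had an unadjusted p under 0.05, with medians of -0.02 in N_28 and -0.11 in N_30. Of 10 genes of the NPHP module and its scaffold, NPHP4 was called higher in N_28 (2.0, edgeR adjusted p = 0.0498), at a low level of 0.870 ± 0.395 CPM in N_28, 0.499 ± 0.254 in N_30 and 0.200 CPM in control, and it was called in 3 of the 9 fits that left out 1 library. In the tubby family, TUB, the founding member, averaged 19.4 ± 0.783 CPM in N_28, 23.5 ± 2.63 in N_30 and 26.4 CPM in control. TUB thus fell in N_28 (-0.44, edgeR adjusted p = 0.00552, called under 15 of 15 alternatives) where TULP3 rose, and was at -0.17 in N_30 (edgeR adjusted p = 0.491). TULP4, the remaining tested member of that family, averaged 34.2 CPM in N_28, 39.3 in N_30 and 39.7 in control, with log2 fold changes against control that did not pass in either set (edgeR adjusted p = 0.0507 in N_28 and 0.954 in N_30).

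In N_28, 1 of 6 IFT-A, 2 of 17 IFT-B, 1 of 8 motor and 1 of 13 BBSome genes were called against control, beside 10.2% of all tested genes. None of these genes was called in N_30, beside 0.866% of all tested genes. Among 6 IFT-A genes, IFT140 fell in N_28 (-0.30, edgeR adjusted p = 0.0457), and among 17 IFT-B genes IFT46 (0.59, edgeR adjusted p = 0.00659) and TTC26 (0.31, edgeR adjusted p = 0.0457) rose. The kinesin KIF17, 1 of 8 motor genes, averaged 3.23 ± 0.735 CPM in N_28, 1.62 ± 0.269 in N_30 and 1.64 in control, and rose in N_28 (0.97, edgeR adjusted p = 0.0116). BBS4, a subunit of the BBSome, which moves receptors out of cilia, fell in N_28 (-0.45, edgeR adjusted p = 0.00845), the 1 of 13 genes of its list. The calls of IFT46 and BBS4 held without any 1 library, and that of KIF17 was lost without N_28 replicate 1. Of the 9 fits that left out 1 library 2 called IFT140 and 1 called TTC26. DESeq2 did not call TTC26 in N_28 (DESeq2 adjusted p = 0.0737).

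Of 12 genes for cargo of TULP3 and for transport of lipidated proteins, 1 rose and 2 fell in N_28, where 10.2% of all tested genes were called. In N_30 edgeR called 0, with 3 at an unadjusted p under 0.05, and DESeq2 called 1. GPR161, a receptor that TULP3 delivers to the cilium, averaged 69.4 ± 1.83 CPM in N_28, 67.4 ± 3.32 in N_30 and 81.2 in control. Its log2 fold change was -0.23 in N_28 (edgeR adjusted p = 0.0393, called in 3 of 9 fits that left out 1 library) and -0.27 in N_30 (edgeR adjusted p = 0.0748, and 0.0222 with a replicate block). ARL3, the GTPase that releases lipidated cargo in the cilium, fell in N_28 (-0.23, edgeR adjusted p = 0.0348), and its GTPase-activating protein RP2 rose (0.35, edgeR adjusted p = 0.0101). ARL3 was called in 2 of the 9 fits that left out 1 library, and RP2 in 8, all but the fit without N_28 replicate 2.

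HHIP, which binds Hedgehog ligands at the cell surface and is itself a target of the pathway, followed the directions of B9D1. HHIP had 41.2, 41.4 and 40.6 CPM in N_28, 18.9, 18.2 and 17.9 CPM in N_30, and 27.1, 27.2 and 23.5 CPM in control. The groups did not overlap, and the log2 fold change was 0.67 in N_28 (edgeR adjusted p = 6.70e-05) and -0.50 in N_30 (edgeR adjusted p = 0.00685), each called under 15 of 15 alternatives. EVC, a ciliary protein that relays the Hedgehog signal, fell in N_28 (-0.35, edgeR adjusted p = 0.0183, called in 5 of 9 fits that left out 1 library). The other 9 tested Hedgehog genes were not called. In N_28, PTCH1 (-0.29), GLI1 (-0.20) and SMO (-0.22) had the sign opposite to that of HHIP, and 5 of the 11 genes of the list lay above 0. An unadjusted p under 0.05 was found for 5 of the 11 in N_28 and for 2 in N_30. The medians of the list were -0.12 in N_28 and -0.03 in N_30.

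Calls in the remaining lists stand beside 10.2% of all tested genes called against control in N_28 and 0.866% in N_30. None of 11 genes of distal appendages and centriole caps and none of 8 ciliogenesis transcription factors was called in either set by edgeR or DESeq2. An unadjusted p under 0.05 was found for 2 of the appendage genes in N_28 and 0 in N_30, and for 0 of the transcription factors in both. RFX5 averaged 40.1 CPM in N_28, 43.8 in N_30 and 43.7 in control, and RFX1 41.3 CPM in N_28, 40.6 in N_30 and 41.4 in control. Of 10 cilium disassembly genes TRIP6 rose in N_28 (0.30, edgeR adjusted p = 0.00884, lost without N_28 replicate 1). Of 10 proliferation genes TOP2A fell in N_28 (-0.50, edgeR adjusted p = 0.0346, called in 6 of 9 fits that left out 1 library). DESeq2 did not call TOP2A there (DESeq2 adjusted p = 0.091). In each group TOP2A was highest in library 3, at 408 CPM in N_28, 533 in N_30 and 614 in control. Of 7 tested genes of the motile axoneme 0 were called against control by edgeR or DESeq2, with 1 at an unadjusted p under 0.05 in N_28 and 0 in N_30.

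**Figure D5:**
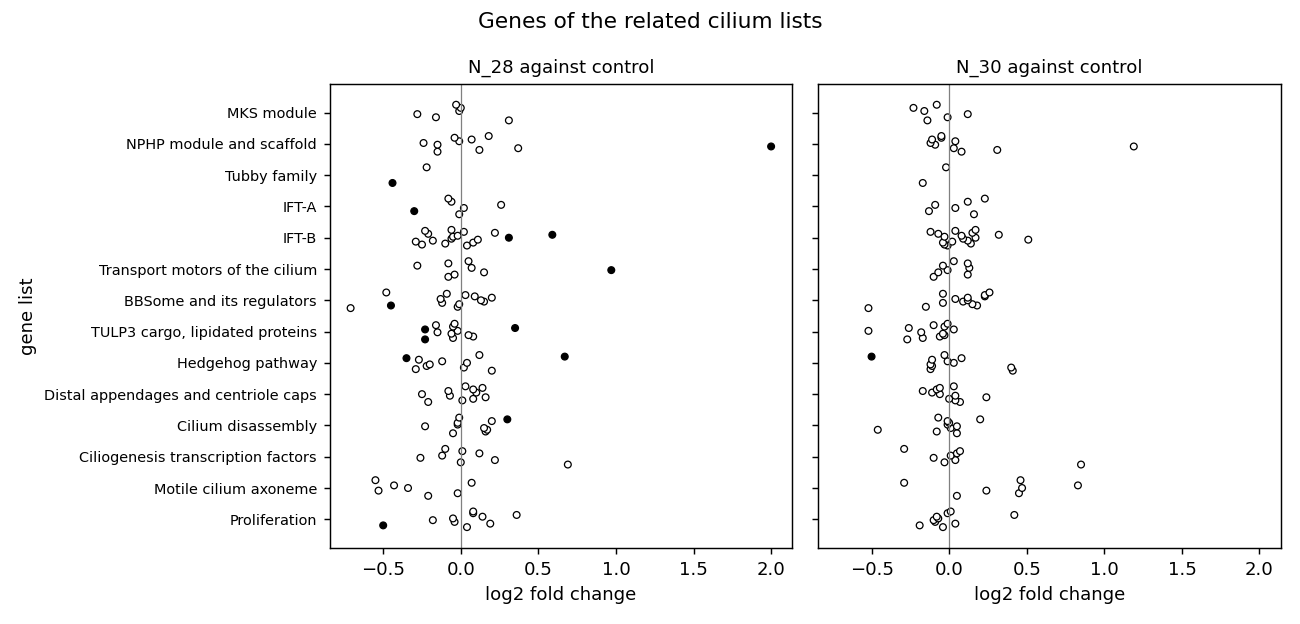
Log2 fold changes of the tested genes of 14 related lists, members left out, in N_28 (left) and N_30 (right) against control. Each point is a gene, filled where the edgeR adjusted p was under 0.05, and spread vertically within its list for legibility. In N_28, 14 filled points fall on both sides of 0, and in N_30 the 1 filled point is HHIP at -0.50.

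The patterns most like those of TULP3 and B9D1 over the 9 libraries were found among 10681 genes whose mean reached 5 CPM. Likeness was Pearson's r of log2 CPM, and since the libraries fall into 3 groups it mostly reflects the order of the group means. TULP3 was most like EIF4E2 (r = 0.972), TADA2B (0.968), BGN (0.954), TIRAP (0.954) and TRIM14 (0.948). The gene least like it of all searched was OPA1, with r = -0.988, followed by RASSF2 (-0.970) and PAX9 (-0.968). EIF4E2, a cap-binding protein, averaged 61.6 CPM in N_28, 59.5 in N_30 and 49.1 in control, and the proteoglycan BGN 61.7 CPM in N_28, 41.0 in N_30 and 22.2 in control, so that a like pattern went with changes of different size. TADA2B and TRIM14 were called against control in neither set, each with log2 fold changes of 0.14 in N_28 and 0.09 in N_30. TIRAP was called in N_28 (0.47, edgeR adjusted p = 0.0325, called in 3 of 9 fits that left out 1 library) and not in N_30 (0.33, edgeR adjusted p = 0.341).

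B9D1 was most like FOXC2 (r = 0.987), SPRY4 (0.986), JADE3 (0.981), FAM50B (0.979) and MYH14 (0.978), and least like PAFAH2 (-0.995), TOX2 (-0.993) and RIMKLB (-0.992). SPRY4, an inhibitor of receptor tyrosine kinase signalling, averaged 58.3 CPM in N_28, 35.2 in N_30 and 40.0 in control. With its neighbours B9D1 had r = 0.973 (EPN2) and 0.958 (MAPK7), and with OPA1 -0.532. Between members, r was 0.542 for TULP3 and B9D1, 0.816 for CC2D2A and CEP290, and -0.862 for B9D1 and TCTN3, all over the same 9 libraries.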

How the data were processed

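The authors deposited raw read counts per gene (whole numbers, human Ensembl identifiers, 60448 rows) for 9 libraries, 3 per group. Per the submitters' processing notes the build is mm8, a mouse build, although the identifiers are human. The sources used here do not give the aligner, counting tool, annotation release or use of strand. Symbols came from a gene name table (56434 rows) and GENCODE 29 (434 more), and positions and exon lengths from GENCODE 29 on GRCh38.

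Counts were filtered by expression (minimum count 10), scaled by TMM and tested with the quasi-likelihood model of edgeR 4.0.16 (limma 3.58.1, R 4.3.3) on 9 libraries with 3 group terms. P-values were adjusted by Benjamini and Hochberg over 15019 genes, with a call at an adjusted p under 0.05. The SE is the fold change over the square root of the test statistic. CPM uses TMM-scaled library sizes, and likeness uses log2 CPM with a prior count of 2. The common biological coefficient of variation was 0.0783. The chi-square per gene between replicates was 3.45 to 11.8, so none was treated as a copy. The fit was tested on simulated data. Promoter windows are RefSeq's and were searched for 8 of 10 members, with member windows on chromosome 8 left out.

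Same-numbered libraries of N_30 and control deviated together from their group means (r = 0.122, 0.169 and 0.306 over genes), each above a bound of 0.1. Libraries of unlike number were not compared, and deviations from the mean of 3 libraries cancel out within a group. Pairing by number therefore cannot be told apart from a shift shared by the libraries numbered 3. With N_28 the values ran from -0.0588 to 0.235.

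Alternatives were DESeq2 1.42.0 size factors and its Wald test, no filter, a mean of at least 5 CPM, only the groups compared, a replicate block, and each library left out. Members and lists were chosen with earlier results of these data known. Named were all 10 members, OPA1, tested neighbours and overlapping genes of TULP3 and B9D1, and the 5 most and 3 least alike genes of that pair. Up to 4 called genes per list were named, or the 2 of highest level where none was called. Tested neighbours and overlapping genes of other members were not called and are not described. Genes within 0.25 Mb, the markers PAX2, PAX8 and VIM, and the Hedgehog genes PTCH1, GLI1 and SMO were named after their values were seen.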

Additional observations from a re-analysis of the deposited data

Results flagged for a closer look

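Values are given here where N_30 against N_28 passed edgeR's quasi-likelihood test with an adjusted p under 0.05, that is, where the change from control differed between the knock-down sets. Among the members the log2 fold changes were -1.02 for B9D1, -0.27 for TULP3 and 0.19 for TCTN3. B9D1 was called under 15 of 15 alternatives, TULP3 under 14 and TCTN3 under 4.

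In the related lists 15 of 131 tested genes were called, 9 higher and 6 lower in N_30, beside 18.3% of all tested genes. The Hedgehog genes HHIP and EVC had log2 fold changes of -1.16 and 0.42. Of 13 genes of the BBSome list 3 were called, all higher in N_30, with BBS4 at 0.63, BBS12 at 0.74 and MKKS at 0.20, and MKKS was called under 7 of 15 alternatives. BBS4 averaged 14.7 ± 0.898 CPM in N_30 and 9.48 ± 0.645 CPM in N_28 (SD, n = 3 each). RP2 and ARL3 differed in opposite directions, at -0.61 and 0.26. KIF17 was at -0.98, TTC21B of IFT-A at -0.35 and IFT22 of IFT-B at 0.28. TMEM237 of the MKS module was at -0.24, TULP4 at 0.20, the distal appendage gene CEP164 at 0.28, the scaffold NEDD9 at -0.63 and the motile axoneme gene CCDC40 at 0.77. CCDC40 is low, at 4.95 ± 0.404 CPM in N_30 and 2.89 ± 0.571 CPM in N_28. The calls of HHIP, EVC, BBS4, RP2 and NEDD9 held under 15 of 15 alternatives, and that of TULP4 under 4.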

How the results depend on the processing

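Over 15 alternatives, 412 of 450 values of the members kept their direction and their side of the threshold, 21 lost a call and 17 turned sign. Without 1 library, uncalled members crossed 0: TMEM67 (-0.06 to 0.17) and B9D2 (-0.17 to 0.11) in N_28, MKS1 (-0.07 to 0.03), TCTN1 (-0.02 to 0.10), B9D2 (-0.13 to 0.13), CC2D2A (-0.06 to 0.03) and CEP290 (-0.08 to 0.06) in N_30, and B9D2 (-0.09 to 0.20) in N_30 against N_28. TULP3 ran from 0.80 to 0.87 in N_28 and from 0.56 to 0.59 in N_30, called under 15 of 15 in both. Members called without 1 library numbered 2 to 2 in N_28, 1 to 2 in N_30 and 1 to 3 in N_30 against N_28, and 1 in N_30 with only the groups compared. Related genes called without 1 library numbered 6 to 14 in N_28, 1 to 2 in N_30 and 9 to 16 in N_30 against N_28, where 14, 1 and 15 were called with all libraries. In N_30 they numbered 4 with no filter on low counts and 3 by DESeq2. The cause was not tested. Members at the depth of B9D2 (98 to 176 counts) have intervals too wide to show small changes.

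With the replicate number as a block, 5 related genes were called in N_30 (NEDD9 -0.46, CDKN1A 0.42, GPR161 -0.27, HHIP -0.50 and SHH 0.41), 20 in N_28 and 28 in N_30 against N_28. Next to B9D1 it added calls in N_30 for EPN2 and MFAP4, and it changed no call of a member.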
